A study of Mus musculus with 30 samples.

Results

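Negative feedback on the ERK pathway was followed through 10 mouse genes, Dusp1, Dusp2, Dusp4, Dusp5, Dusp6, Dusp10, Spry2, Spry4, Spred1 and Spred2. They were taken by name, as the rows of the deposited count matrix whose Ensembl identifier, with its version removed, pairs with these symbols. All 10 were found among 57186 gene identifiers. The choice was made with earlier results of these data known, so shares of members set beside those of all genes are descriptive and no independent test. NIH/3T3, an established mouse fibroblast line, and CGR8, an established mouse embryonic stem cell line, were treated with 0.1 µg/mL cycloheximide and sampled at 0, 1, 2, 5 and 48 h, with 3 replicates (A, B and C) for each time in each line. Cycloheximide stalls ribosomes during elongation and so slows protein synthesis, and the stated question was how the transcriptome of each line responds to this early on. Both lines carry the same SLT knock-in at ROSA26, at all times. NIH/3T3 cells were grown in DMEM with fetal bovine serum and CGR8 cells in N2B27 with 2i and LIF, so line and medium cannot be told apart. The treatment label gives 0.1 µg/mL for every library, 0 h included. From the 0 h in their titles, the 0 h libraries were read as the untreated controls of their line. No vehicle group was analysed here. The labels do not say whether replicates came from separate cultures, so p-values measure the spread between these libraries, which may be technical.

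In the ERK cascade, growth factor receptors act through RAS on the kinases RAF, MEK and ERK, and active ERK switches on genes whose products shut the cascade down again. The dual-specificity phosphatases (DUSPs, also called MAP kinase phosphatases) remove phosphate from ERK, p38 or JNK, Sprouty proteins interrupt the signal between receptor and RAF, and Spred proteins bring the RAS inhibitor neurofibromin to the membrane. The transcripts of several of these genes are short-lived and belong to the early response of fibroblasts to serum. The 2i medium used for mouse embryonic stem cells holds an inhibitor of MEK, the kinase that activates ERK.

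The libraries held 18.2 to 30.5 M counts (mega-counts). In a chi-square comparison of counts over genes, NIH/3T3 1 h replicate C stood apart from replicates A and B (76.2 and 89.1 per degree of freedom, against 4.41 between A and B), and CGR8 5 h replicates A and C also lay far apart (73.7). Of the 8 embryonic stem cell markers examined, 7 stood at 0.418 counts per mega-count of the library (CPM) or less in every NIH/3T3 library, and the exception was Klf4. The 6 fibroblast markers summed to 4062 CPM or more in every NIH/3T3 library and to 5.07 CPM or less in every CGR8 library, although Thy1 and Postn were close to absent in NIH/3T3. In bulk RNA, fewer cells with a transcript and less of it per cell cannot be told apart, and CPM give each gene's share of a library, not its amount per cell.

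The promoters of Dusp1 and Dusp5 are shown because these members had the largest fold increases at 2 h in NIH/3T3. Both stretches lie upstream of the annotated start in RefSeq on GRCm38.p6. The Dusp1 stretch is chr17:26508583-26508688 on the minus strand, from 216 to 111 bases before the start, and its capitals mark 2 cyclic AMP response element cores. The Dusp5 stretch is chr19:53529038-53529107 on the plus strand, from 107 to 38 bases before the start, and its capitals mark 2 adjoining CArG boxes.
Dusp1: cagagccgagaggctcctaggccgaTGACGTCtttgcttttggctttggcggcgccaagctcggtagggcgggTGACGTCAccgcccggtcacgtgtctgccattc
Dusp5: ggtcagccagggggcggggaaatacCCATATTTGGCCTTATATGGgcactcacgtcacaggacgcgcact
The cyclic AMP response element is the site bound by CREB-family factors, and the CArG box is bound by serum response factor. The core TGACGTC, searched on both strands in the 250 bases before the start, was present in 2.78% of 32851 promoters, the full element TGACGTCA, which contains the core, in 1.55%, and a CArG box in 1.47%. Among the 8 members with a promoter entry, the full element was found only in Dusp1, the CArG box only in Dusp5, and a single core also in Spred2, 53 bases before its start. Dusp4 and Spry4 had no promoter entry. The binding site of EGR1 (GCGNGGGCG, in 4.70% of promoters) was found only in Dusp2. The shorter letters TGACG (17.8% of promoters) were found in Dusp1, Dusp5 and Spred2, and CCAAT (33.8%) in Dusp6 and Dusp10. Also searched were the ETS site CCGGAAG (6.91%), the AP-1 site TGANTCA (6.75%) and the TATA box TATAAA (12.4%), which were found in none of the 8 members. These matches describe letters in a window and no binding was measured.

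Transcript ends also differed among members. The motif ATTTA is the core of the AU-rich elements known from short-lived messages. It occurred at a median of 2.15 copies per kilobase of annotated 3′ untranslated region in the 10 members, against 1.28 in 20607 other protein-coding genes of GENCODE M21. The median was 1.56 in the 12300 of these whose region lay in the members' range of 581 to 4330 bases. Their median region had 1526 bases, against 1112 in the members, so length was not matched. Dusp2 (6.88 copies per kilobase) and Dusp1 (5.80) had the highest densities, and Dusp6 (0.84) and Dusp5 (0.90) the lowest. The longer form TATTTAT was present in 60.0% of members, 28.1% of other genes and 35.9% of other genes in that length range.

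Before cycloheximide all 9 members with enough counts for a test were present in both lines, most of them at different levels. Of these 9, 6 were lower and 2 higher in CGR8 than in NIH/3T3, and Spred2 did not pass the test (edgeR quasi-likelihood test, Benjamini-Hochberg adjusted over all 17549 genes tested, threshold 0.05). The share of members called in either direction, 8 of 9, was close to the background, as 13883 of the 17549 genes were called. By direction it was not, since more members were lower than higher, whereas 36.3% of genes were lower and 42.8% higher by the same rule. Dusp10, which acts mainly on p38 and JNK, stood at 68.5 ± 8.0 CPM (SD, n = 3) in NIH/3T3 and 4.28 ± 0.48 CPM in CGR8, a log2 difference of -4.00 (SE 0.14). Dusp4 and Dusp5, both inducible nuclear phosphatases, were lower by log2 differences of -3.77 (SE 0.13) and -2.93 (SE 0.18). Spry4 was higher in CGR8, at 102, 118 and 103 CPM in replicates A, B and C against 19.1, 19.9 and 17.4 CPM (log2 difference 2.52, SE 0.15, adjusted p = 4.7e-15 by edgeR). Spry2 was also higher in CGR8, by a log2 difference of 0.80 (SE 0.10).

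**Figure D1:**
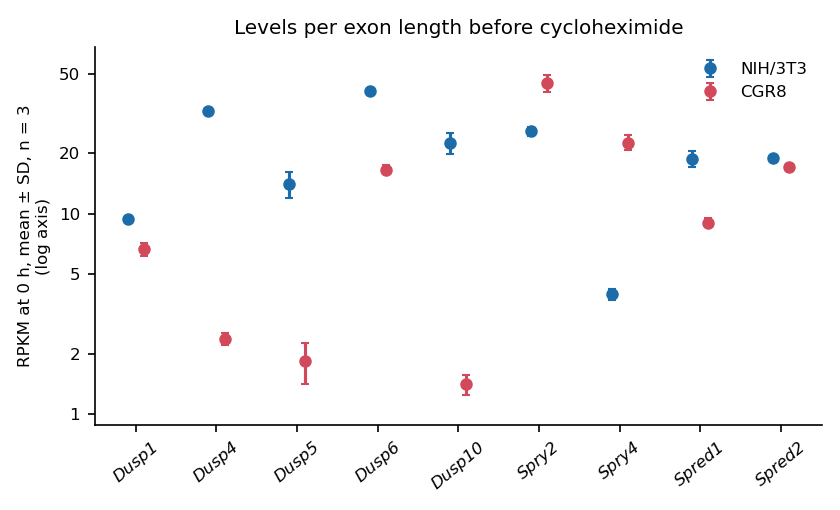
Level of each tested member at 0 h in RPKM (CPM per kilobase of exon, log axis), with points for the mean and bars for the SD of 3 replicates in each line. Dusp6 is highest in NIH/3T3 at 40.8 RPKM and Spry2 in CGR8 at 44.9 RPKM, and the lines lie farthest apart for Dusp10.

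Compared per exon length, the order of the untreated levels differed between the lines. In NIH/3T3 it ran from Dusp6, the cytoplasmic ERK phosphatase, at 40.8 RPKM through Dusp4 (32.5), Spry2 (25.7), Dusp10 (22.5), Spred2 (19.0), Spred1 (18.8), Dusp5 (14.1) and Dusp1 (9.45) to Spry4 (3.95). Neighbours whose replicates overlapped were Spry2 with Dusp10 and Spred2 with Spred1. In CGR8 the order was Spry2 (44.9 RPKM), Spry4 (22.6), Spred2 (17.0), Dusp6 (16.6), Spred1 (9.02), Dusp1 (6.63), Dusp4 (2.38), Dusp5 (1.84) and Dusp10 (1.41), with overlaps of Spred2 with Dusp6, of Dusp4 with Dusp5 and of Dusp5 with Dusp10. Dusp2, a nuclear phosphatase best known from immune cells, had 0 or 1 counts in every NIH/3T3 library and at most 8 in any CGR8 library, and was not tested.

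During the first 2 h of cycloheximide the feedback genes rose in NIH/3T3. At 1 h, 3 of 9 tested members were called higher and 0 lower, where 0.653% and 0.0789% of 13941 genes were. At 2 h, 7 were higher and 1 lower, where 16.1% and 18.9% of genes were. The members' median log2 fold change was 0.40 at 1 h and 1.01 at 2 h, beside 0.02 and -0.01 over all genes. All later comparisons with 0 h use the same control libraries, so their values are not independent of one another.

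Dusp1, the archetype of the inducible nuclear phosphatases, had the largest fold change at 1 h. Its level was 30.1, 31.5 and 32.3 CPM at 0 h, 88.8, 90.2 and 79.2 CPM at 1 h, and 139.7, 111 and 111 CPM at 2 h. The 3 times did not overlap, and the increase was 2.80-fold at 1 h (log2 1.49, SE 0.11, adjusted p = 6.6e-07 by edgeR) and 3.93-fold at 2 h (log2 1.98, SE 0.11). The exons of Dusp1 overlap those of Ergic1 on the other strand, and whether the authors' counts used strand was not given in the sources used here. In NIH/3T3 Ergic1 had log2 fold changes of -0.06 (SE 0.11) at 1 h and -0.18 (SE 0.11) at 2 h, neither past the test. It was called lower there at 5 h (-0.64, SE 0.11), when Dusp1 was higher. In CGR8 both genes were called lower at 5 h and 48 h, with -0.80 (SE 0.15) and -0.53 (SE 0.15) for Ergic1. Untreated Ergic1 was also lower in CGR8 than in NIH/3T3 (-1.59, SE 0.14), at means of 104 and 312 CPM. The part of Ergic1 in the Dusp1 counts was not tested.

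Dusp6, which acts on ERK in the cytoplasm and is a standard readout of ERK activity, followed closely. It went from 125, 133 and 125 CPM at 0 h to 275, 305 and 237 CPM at 1 h and 402, 424 and 407 CPM at 2 h, again with no overlap between the times. The log2 fold change was 1.12 (SE 0.09) at 1 h and 1.72 (SE 0.09, adjusted p = 1.2e-09 by edgeR) at 2 h. Spry2, one of the Sprouty inhibitors, rose less, from 54.4, 50.8 and 55.8 CPM to 79.1, 90.2 and 72.2 CPM and then 112, 104 and 112 CPM. Its log2 fold change of 0.61 (SE 0.09) at 1 h passed the test in the model of all NIH/3T3 libraries (adjusted p = 0.0012 by edgeR), but not in a model of the compared groups alone (adjusted p = 0.143).

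Dusp5, a nuclear phosphatase specific to ERK, rose mostly between 1 h and 2 h. It stood at 37.6, 28.7 and 38.0 CPM at 0 h, 41.5, 49.98 and 33.4 CPM at 1 h, and 155, 116 and 126 CPM at 2 h. The libraries of 0 h and 1 h overlapped through 1 h replicate C alone, whereas those of 2 h lay above both. At 1 h the log2 fold change of 0.29 (SE 0.14) did not pass the edgeR test, but voom called it (0.28, adjusted p = 0.0271). An RNA annotated on the other strand of Dusp5, AC137853.2, overlaps its exons and reached at most 0.21 CPM in any library. The step from 1 h to 2 h was a log2 fold change of 1.68 (SE 0.15, adjusted p = 3.0e-06 by edgeR). In that step 5 members rose and 1 fell, where 6.08% and 11.3% of genes did, and only Dusp5 kept its call in a model of those groups alone. The call of the member that fell, Spred2, was lost without 1 h replicate A, 1 h replicate B, 2 h replicate B or 2 h replicate C (log2 -0.33, -0.28, -0.38 and -0.30).

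Dusp10 rose at 2 h, from 74.3, 59.4 and 71.9 CPM to 115, 143 and 147 CPM (log2 1.01, SE 0.11), and Dusp4 from 87.7, 91.6 and 87.9 CPM to 123, 136 and 124 CPM (log2 0.55, SE 0.11). Spry4, the other Sprouty inhibitor examined, rose from 19.1, 19.9 and 17.4 CPM to 34.1, 24.4 and 27.3 CPM (log2 0.64, SE 0.14, adjusted p = 0.0037 by edgeR). At 1 h none of these 3 passed the edgeR test, with log2 fold changes of 0.40 for Dusp10, 0.25 for Dusp4 and 0.44 for Spry4, whereas voom called all 3 and DESeq2 called Dusp10 (adjusted p = 0.0423). Replicate C of 1 h was the lowest of its group for all 9 tested members. Without it, 6 members were called at 1 h by edgeR, these 3 among them. The share of all genes called in that fit is not given here, so the larger count describes the fit.

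The Spred genes did not take part in the rise. Spred1 stood at 129.7, 139 and 115 CPM at 0 h and 100.4, 113 and 108 CPM at 2 h, so that the libraries of 2 h lay below all of 0 h, but the log2 fold change of -0.23 (SE 0.09) did not pass the test (adjusted p = 0.072 by edgeR, and 0.0122 by voom). Spred2 fell at 2 h from 89.1, 85.6 and 89.0 CPM to 62.6, 61.9 and 56.2 CPM, a log2 fold change of -0.51 (SE 0.10). In summed level, the 6 fibroblast markers went from 6576 to 7303 CPM at 0 h to 4062 to 5236 CPM at 2 h, and the part of this shift in the members' values was not tested.

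**Figure D2:**
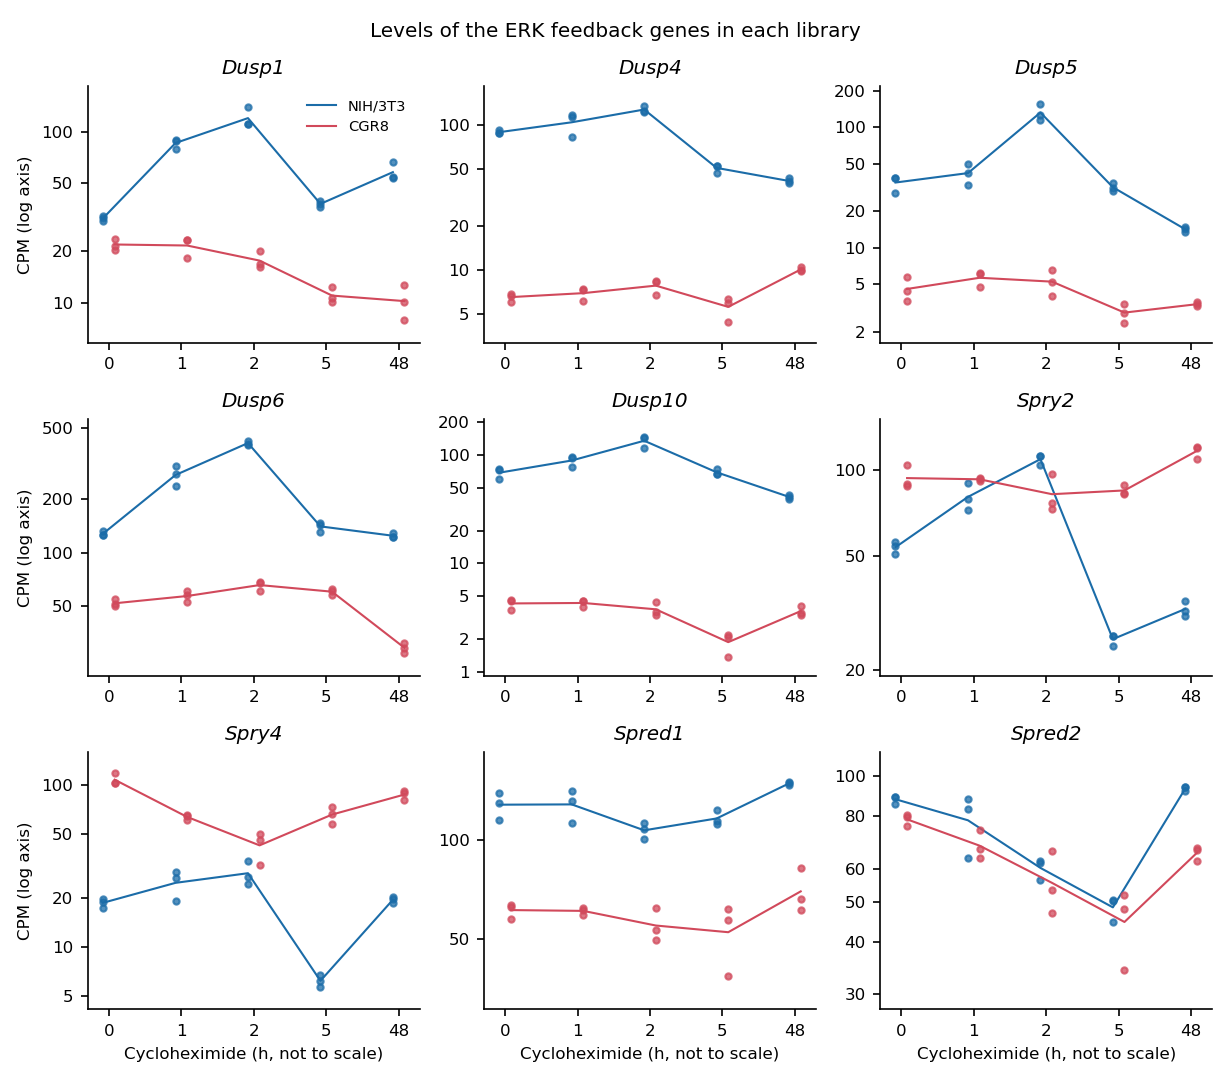
CPM of each tested member (log axis, own scale per gene) against time in cycloheximide, with 1 point per library and lines through the means of 3 replicates in NIH/3T3 and CGR8. In NIH/3T3, 7 members peak at 2 h and fall by 5 h, Spred1 and Spred2 are highest at 48 h, and in CGR8 Spry4 is lowest at 2 h.

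Between 2 h and 5 h the NIH/3T3 levels came down. Of 9 tested members 8 fell in this step, where 12.5% of genes did, with a median log2 fold change of -1.55 over the 9. Spry4 fell by 2.20 on the log2 scale (SE 0.16), Spry2 by 2.09 (SE 0.09) and Dusp5 by 2.06 (SE 0.15). Spred1 was the member that did not pass the test (log2 0.12, SE 0.09). The fall of Spred2 (log2 -0.31, SE 0.10) lost its call without 2 h replicate A (log2 -0.28), 2 h replicate B (-0.30), 5 h replicate A (-0.34), 5 h replicate B (-0.26) or 5 h replicate C (-0.34), with library size alone (-0.26) and with no filter on low counts (-0.32).

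At 5 h the members stood at different places relative to untreated cells, with 4 lower and 1 higher of 9, against 27.1% and 24.0% of genes. Spry4 fell below its untreated level, at 6.19, 5.71 and 6.76 CPM (log2 -1.56 against 0 h, SE 0.16, adjusted p = 1.2e-06 by edgeR), and so did Spry2, at 26.3, 24.3 and 26.2 CPM (log2 -1.03, SE 0.09). Dusp4 (log2 -0.78, SE 0.11) and Spred2 (log2 -0.83, SE 0.10) were the other 2 below it. Dusp5, Dusp6 and Dusp10 had log2 values of -0.09, 0.17 and 0.05 against 0 h, none past the edgeR test. Dusp6 was called by voom (log2 0.18, adjusted p = 0.00805) and in a model of the compared groups alone (log2 0.18, adjusted p = 0.0176). Dusp1 remained higher at 38.1, 36.2 and 39.5 CPM (log2 0.31, SE 0.11, adjusted p = 0.029 by edgeR). That last call was lost on leaving out 0 h replicate A, 0 h replicate B, 5 h replicate A or 5 h replicate C, with adjusted p = 0.0975, 0.0565, 0.053 and 0.10, respectively.

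At 48 h Dusp1 was again apart from the other phosphatases in NIH/3T3. It was higher than at 0 h, at 54.3, 53.5 and 66.7 CPM (log2 0.86, SE 0.11), while Dusp4, Dusp5, Dusp10 and Spry2 were lower, which makes 1 higher and 4 lower of 9 against 26.7% and 25.6% of genes. Dusp5 had its lowest level of the course, at 13.5, 14.7 and 14.4 CPM (log2 -1.32, SE 0.15, adjusted p = 2.9e-06 by edgeR), below every library of the earlier times. Dusp4 was at 39.6, 40.7 and 42.8 CPM (log2 -1.15, SE 0.11). Dusp6 did not pass the test (log2 -0.07, SE 0.09). Spred1 did not pass it either (log2 0.19, SE 0.09), although its libraries lay above all of 0 h. It was called higher by voom (adjusted p = 0.00465), and by edgeR in a model of the compared groups alone (0.0292) and with library size alone (0.0476). From 5 h to 48 h all 9 tested members changed, 5 upward and 4 downward, where 34.1% and 31.4% of genes did, and the largest of these steps was the return of Spry4 to 19.8, 18.8 and 20.3 CPM (log2 1.60, SE 0.16). Smaller steps lost their calls without single libraries: Dusp6 (log2 -0.24) without 5 h replicate C (-0.20), 48 h replicate A (-0.22) or 48 h replicate B (-0.22), Spry2 (0.29) without 5 h replicate B (0.25) or 48 h replicate A (0.25), and Spred1 (0.29) without 5 h replicate A (0.24). The summed fibroblast markers were 10073 to 10245 CPM at 48 h, above all other times, and their part in these values was not tested.

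**Figure D3:**
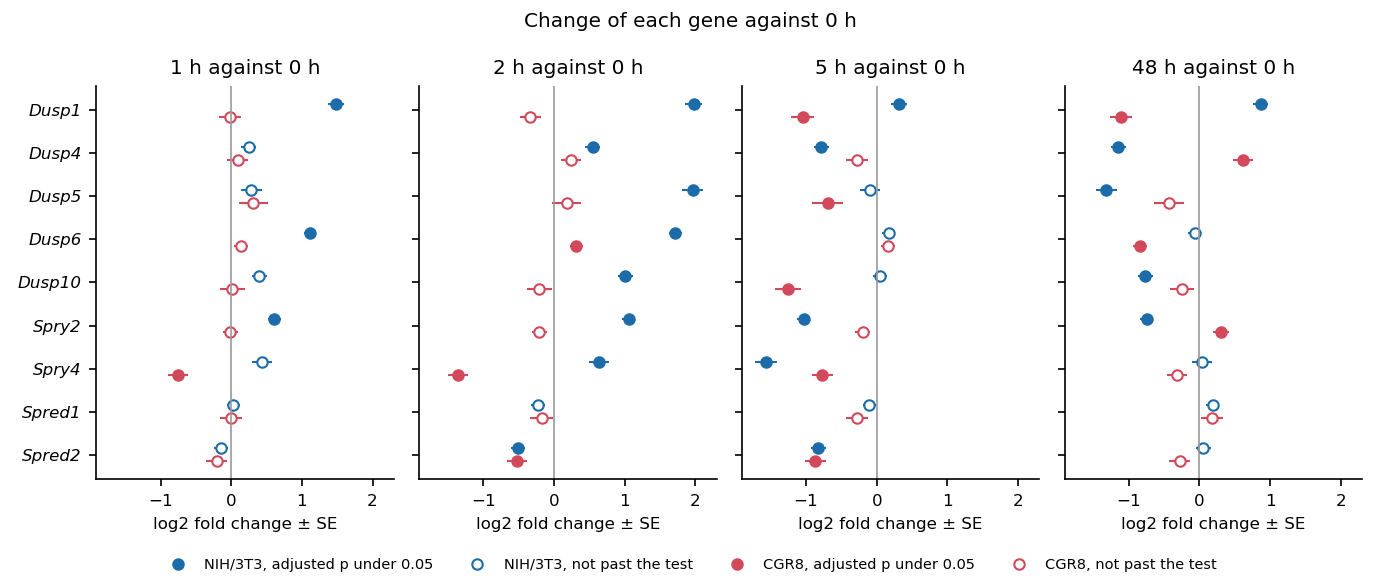
log2 fold change of each tested member against 0 h with its SE, by time and line, from edgeR with 3 replicates per group. Filled points have an adjusted p under 0.05. At 2 h, 7 NIH/3T3 points lie to the right and pass the test, against 1 CGR8 point (Dusp6).

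In CGR8 fewer members passed the test in the first hours: Spry4 fell at 1 h and 2 h, and at 2 h Spred2 fell and Dusp6 rose. At 1 h, 1 of 9 tested members was lower and 0 higher, where 0.126% and 0.144% of 15933 genes were. At 2 h, 2 were lower and 1 higher, where 11.0% and 8.97% of genes were. The members' median log2 fold change was -0.01 at 1 h and -0.20 at 2 h, beside -0.0026 and 0.01 over all genes. At 1 h, 53.5% of called genes were higher with TMM scaling and 68.4% with library size alone.

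Spry4 went from 102, 118 and 103 CPM at 0 h to 65.0, 61.0 and 64.6 CPM at 1 h and 49.6, 45.6 and 32.2 CPM at 2 h. The 3 times did not overlap. The fall at 2 h was 2.57-fold (log2 -1.36, SE 0.14, adjusted p = 2.9e-05 by edgeR). At 1 h the log2 fold change of -0.76 (SE 0.14) had an adjusted p of 0.031 by edgeR, which rose to between 0.0842 and 0.211 when any 1 of the 6 libraries of 0 h and 1 h (replicates A, B and C of each) was left out. At 1 h the call was also lost in edgeR with library size alone as the scaling (adjusted p = 0.0565) and with a term for the replicate letter (0.0624).

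Dusp6 had the single called increase in CGR8 at 2 h, from 51.3, 54.8 and 50.03 CPM to 61.1, 67.7 and 68.6 CPM, with no overlap but a small size (log2 0.32, SE 0.09, adjusted p = 0.029 by edgeR). The call was lost without 0 h replicate A, 0 h replicate C, 2 h replicate B or 2 h replicate C, with adjusted p = 0.10, 0.105, 0.0639 and 0.0965, with no filter on low counts (0.212) and in a model of the compared groups alone (0.107). Spred2 fell to 53.4, 66.0 and 46.9 CPM from 79.7, 75.7 and 80.7 CPM (log2 -0.52, SE 0.15, adjusted p = 0.023 by edgeR), a call lost without 0 h replicate A, 0 h replicate C or 2 h replicate C (0.0719, 0.072 and 0.13) and in a model of the compared groups alone (0.0699). With any of 0 h replicate A, 0 h replicate C and 2 h replicate C left out, Spry4 was the only member called at 2 h, since 1 remained. Dusp1 did not pass the test at either time, although its libraries of 2 h lay below all of 0 h (log2 -0.33, SE 0.15), at 21.7, 23.7 and 20.5 CPM untreated, 23.5, 23.3 and 18.3 CPM at 1 h and 20.03, 16.9 and 16.1 CPM at 2 h.

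The largest set of decreases in CGR8 came at 5 h, when 5 of 9 tested members were lower and 0 higher than untreated, where 27.2% and 24.9% of genes were by edgeR. Voom called Dusp6 higher (log2 0.21, adjusted p = 0.0263), and its libraries, at 57.6, 62.8 and 60.8 CPM, lay above those of 0 h. Dusp1 was at 10.7, 12.3 and 10.2 CPM (log2 -1.05, SE 0.16, adjusted p = 6.2e-05 by edgeR), below all libraries of the earlier times. Dusp10 was at 2.09, 2.18 and 1.37 CPM (log2 -1.25, SE 0.19) and Spred2 at 34.2, 51.9 and 48.0 CPM (log2 -0.87, SE 0.15). Spry4 was still below its untreated level at 57.2, 73.5 and 66.4 CPM (log2 -0.77, SE 0.14), but above its 2 h level. Dusp5, at 2.37, 2.89 and 3.44 CPM, had a log2 fold change of -0.70 (SE 0.21, adjusted p = 0.012 by edgeR), and its call was lost without 0 h replicate B or 5 h replicate A (adjusted p = 0.0692 and 0.0652).

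In the step from 2 h to 5 h, 4 CGR8 members fell and Spry4 rose (log2 0.59, SE 0.14), where 11.2% and 7.91% of genes did. The 4 were Dusp10 (log2 -1.05), Dusp5 (log2 -0.88), Dusp1 (log2 -0.71) and Dusp4 (log2 -0.52). Without 5 h replicate A, 3 members were called in this step, with Dusp4 (log2 -0.35) and Dusp5 (log2 -0.72) lost, and Dusp4 was also lost without 2 h replicate A (-0.49) or 2 h replicate B (-0.45). In a model of the 2 groups alone the calls of Dusp4, Dusp5 and Spry4 were lost (adjusted p = 0.155, 0.073 and 0.106 by edgeR). Of all called genes 41.3% were higher with TMM scaling and 25.2% with library size alone.

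At 48 h, 2 CGR8 members were higher and 2 lower than untreated by edgeR, where 12.2% and 15.6% of genes were. Spry4 (log2 -0.31, SE 0.14) and Spred2 (-0.28, SE 0.15) did not pass this test, although their libraries lay below all of 0 h. Voom called both lower (adjusted p = 0.0255 and 0.0152), as did an edgeR model of the compared groups alone (0.0287 and 0.0272). Dusp6 had its lowest level of the course, at 31.2, 27.5 and 29.1 CPM (log2 -0.84, SE 0.10, adjusted p = 1.3e-05 by edgeR), and Dusp1 stayed low at 12.7, 7.96 and 10.1 CPM (log2 -1.11, SE 0.16). Dusp4 was at its highest, 9.97, 9.89 and 10.4 CPM against 6.87, 6.03 and 6.63 CPM untreated (log2 0.62, SE 0.15, adjusted p = 0.0048 by edgeR), above all libraries of the other times. Spry2 was at 109.6, 121 and 119.5 CPM (log2 0.31, SE 0.11), with an adjusted p of 0.045 by edgeR. That value went above 0.05 without 0 h replicate A (0.155), 0 h replicate C (0.131), 48 h replicate A (0.0506), 48 h replicate B (0.128) or 48 h replicate C (0.139). It also did so with no filter on low counts (0.103) and with a term for the replicate letter (0.0567). The 5 markers of cells leaving the naive stem cell state summed to 246 to 269 CPM at 0 h and 470.3 to 634 CPM at 48 h. Nearly all of that sum was Dnmt3b, at 166 to 608 CPM over the CGR8 libraries, while Otx2 reached at most 22.7 CPM, T 4.41 CPM, Pou3f1 2.02 CPM and Fgf5 0.40 CPM. The 3 trophectoderm markers summed to 44.2 to 49.5 CPM and 8.4 to 12.1 CPM, and the 8 stem cell markers to 5595 to 5747 CPM and 5869 to 6526 CPM. The part of these shifts in the members' values was not tested.

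From 5 h to 48 h in CGR8, 6 members rose and Dusp6 fell (log2 -1.001, SE 0.10), where 28.9% and 28.6% of genes did. The increases ran from 0.45 for Spry4 and Spred1 to 1.01 for Dusp10 on the log2 scale. The calls of Spry4 (log2 0.35) and Spred1 (log2 0.26) were lost without 5 h replicate A, the lowest CGR8 library for both Spred genes, and that of Spred1 also without 48 h replicate C (log2 0.32).

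The difference between the lines in these responses was tested directly, as CGR8 minus NIH/3T3 in the log2 fold change against 0 h, in a model of all 30 libraries. At 1 h, 3 of 9 members were called on the lower side and 0 on the higher, where 0.142% and 0.0171% of 17549 genes were, and at 2 h 6 and 0, where 1.16% and 0.866% were (42.8% of called genes on the higher side, and 31.8% with RLE factors). At 2 h the differences were -2.26 (SE 0.19) for Dusp1, -1.95 (SE 0.20) for Spry4, -1.73 (SE 0.25) for Dusp5, -1.35 (SE 0.12) for Dusp6, -1.21 (SE 0.14) for Spry2 and -1.17 (SE 0.20) for Dusp10. The median over the 9 members was -1.21, beside 0.07 over all genes. The 3 members not called at 2 h were Dusp4 (-0.26, SE 0.17), Spred1 (0.10, SE 0.18) and Spred2 (0.04, SE 0.18). At 1 h the difference of Spry2 (-0.60, SE 0.14) did not pass the test (adjusted p = 0.109 by edgeR), but DESeq2 (0.0108) and voom (0.000274) called it. It was also called by edgeR among genes of at least 5 CPM and without NIH/3T3 1 h replicate C (adjusted p = 0.0289 in both).

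Spry4 moved in opposite directions in the lines at 2 h, up in NIH/3T3 and down in CGR8, and both changes passed their own test. Because its untreated level was higher in CGR8, the lines drew closer: at 2 h it stood at 34.1, 24.4 and 27.3 CPM in NIH/3T3 and 49.6, 45.6 and 32.2 CPM in CGR8, with overlap between the lines. Spry2 crossed over in the same interval, since its NIH/3T3 libraries, below all CGR8 libraries at 0 h, lay above all of them at 2 h (97.1, 76.4 and 73.3 CPM in CGR8). For Spred1 and Spred2, no line difference passed the edgeR test at any of the 4 times, although that of Spred2 at 48 h (-0.35, SE 0.18) was called by voom (-0.37, adjusted p = 0.00767) and in a model of the compared groups alone (-0.34, adjusted p = 0.00898). Spred2 stood at 50.6, 44.7 and 50.1 CPM in NIH/3T3 and 34.2, 51.9 and 48.0 CPM in CGR8 at 5 h, with overlap between the lines.

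**Figure D4:**
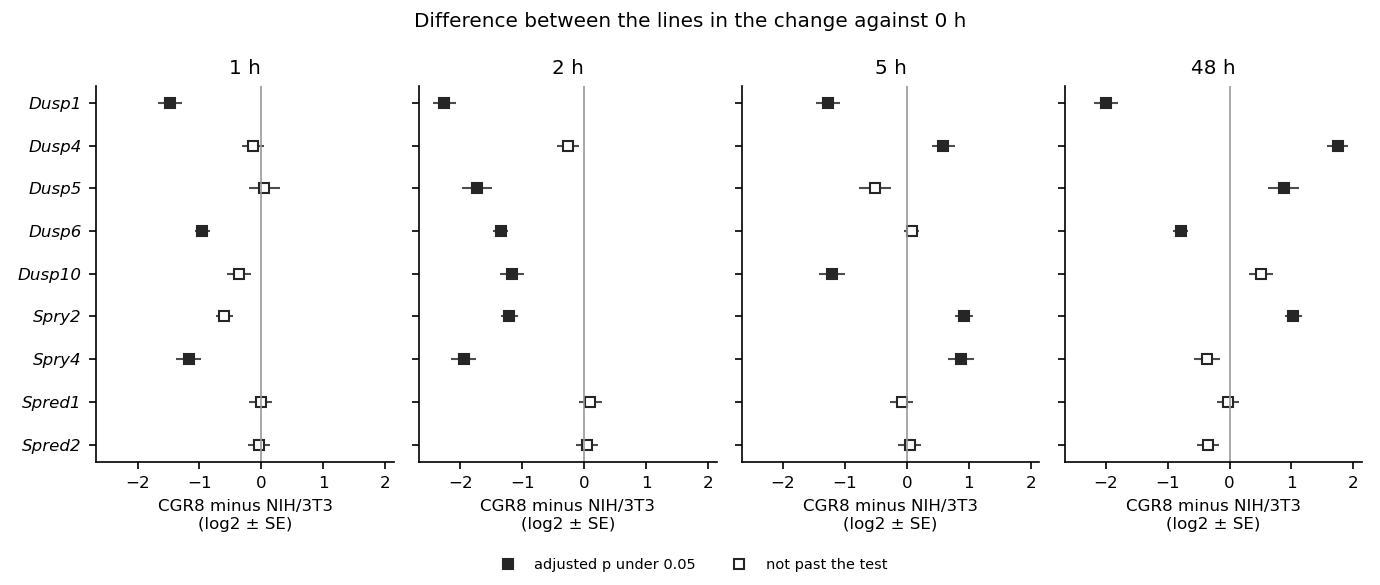
CGR8 minus NIH/3T3 difference in log2 fold change against 0 h for each tested member, with its SE, at each time, from 1 edgeR model of 30 libraries. Filled squares have an adjusted p under 0.05. At 2 h, 6 members lie to the left and pass the test, from -1.17 for Dusp10 to -2.26 for Dusp1.

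At 5 h, 2 line differences were called on the lower side and 3 on the higher, where 5.09% and 8.18% of genes were. The median difference over all genes was 0.13 with TMM scaling, 0.05 with RLE factors and -0.06 with library size alone, and 61.6%, 45.9% and 31.5% of the called genes were on the higher side. Dusp1 (-1.27, SE 0.19) and Dusp10 (-1.22, SE 0.21) were the lower ones, and Spry2 (0.92, SE 0.14), Spry4 (0.88, SE 0.21) and Dusp4 (0.59, SE 0.18) the higher. Without CGR8 5 h replicate B, 3 members were called, as Spry4 went to 0.63 (adjusted p = 0.0685 by edgeR) and Dusp4 to 0.34 (0.293). The call of Dusp4 was also lost without NIH/3T3 0 h replicate B (0.57), NIH/3T3 5 h replicate B (0.53), CGR8 0 h replicate B (0.53), CGR8 0 h replicate C (0.60) or CGR8 5 h replicate C (0.53), and with RLE factors (0.51), with library size alone (0.40), with no filter on low counts (0.55) and among genes of at least 5 CPM (0.49).

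At 48 h, 2 line differences were lower and 3 higher, where 12.1% and 9.78% of genes were. Dusp1 (-1.99, SE 0.19) and Dusp4 (1.75, SE 0.17) had the largest, in opposite directions. The other 3 were Spry2 (1.03, SE 0.14), Dusp5 (0.87, SE 0.26) and Dusp6 (-0.79, SE 0.12). Dusp10 did not pass the edgeR test, but DESeq2 (0.51, adjusted p = 0.0463) and voom (0.54, adjusted p = 0.0196) called it. It was also called among genes of at least 5 CPM (0.49), in a model of the compared groups alone (0.52) and without NIH/3T3 0 h replicate B (0.62). Spry4, likewise not called by edgeR, was called by voom (-0.31) and in a model of the compared groups alone (-0.35).

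The members' courses over the 15 libraries of a line were described by the correlation of their log2 CPM, where libraries of a time share its level and all share the scaling. In NIH/3T3 the closest pair was Dusp5 with Dusp10 (Pearson r 0.958), followed by Dusp4 with Spry2 (0.930), and the most opposed was Dusp5 with Spred1 (-0.737). In CGR8 the closest was Spred1 with Spred2 (0.755) and the most opposed Dusp6 with Spry2 (-0.850). The gene most like Dusp1 in NIH/3T3 was Ccn1 (r 0.974), a secreted matrix protein of the early serum response, the one most like Dusp5 was Hbegf (0.980), and the one most like Spry4 was Sox9 (0.980), with Egr1 next (0.974). Dusp6 was most like Cited2 (0.988), Dusp10 most like Has2 (0.978) and Spry2 most like Trib1 (0.987). In CGR8 the nearest genes were others, among them Myo1c for Dusp1 (0.974), Mppe1 for Dusp6 (0.987), Ephb4 for Spry4 (0.954) and Gsk3b for Spred2 (0.986).

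Other genes of the pathway were counted in 4 lists, 87 symbols in all. For all 4, the shares over all genes in NIH/3T3 at 1, 2, 5 and 48 h were 0.653%, 16.1%, 24.0% and 26.7% higher. Those lower were 0.0789%, 18.9%, 27.1% and 25.6%. In CGR8 they were 0.144%, 8.97%, 24.9% and 12.2% higher and 0.126%, 11.0%, 27.2% and 15.6% lower. Some list counts lay near these shares, such as 4 higher and 4 lower of 16 other feedback genes in NIH/3T3 at 48 h. The list named ERK-responsive targets held 22 genes, the transcription factors Elk1, Elk3, Elk4 and Srf among them. Whether each of its transcripts responds to ERK in these cells was not tested. Of the 22, NIH/3T3 had 8 higher and 0 lower at 1 h, 10 and 3 at 2 h, 0 and 15 at 5 h, and 5 and 11 at 48 h. The median log2 fold changes were 0.17, 0.31, -0.62 and -0.31. In CGR8, where 19 were tested, 2 were higher and 0 lower at 1 h, 3 and 5 at 2 h, 0 and 10 at 5 h, and 4 and 5 at 48 h. Without CGR8 2 h replicate C, 4 were called at 2 h. The transcription factor Egr1 rose in CGR8 at 1 h from 1.096 ± 0.09 to 44.8 ± 3.6 CPM (SD, n = 3, log2 5.35, SE 0.20), when edgeR called 0 of the 9 tested members higher in that line, and fell in NIH/3T3 at 5 h from 118.8 ± 9.0 to 5.86 ± 0.68 CPM (log2 -4.31, SE 0.20). Fos rose in NIH/3T3 at 2 h from 0.61 ± 0.09 to 9.1 ± 1.2 CPM (log2 3.91, SE 0.23). Ets2, an ETS-family factor, fell in CGR8 at 5 h (log2 -1.49, SE 0.16).

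**Figure D5:**
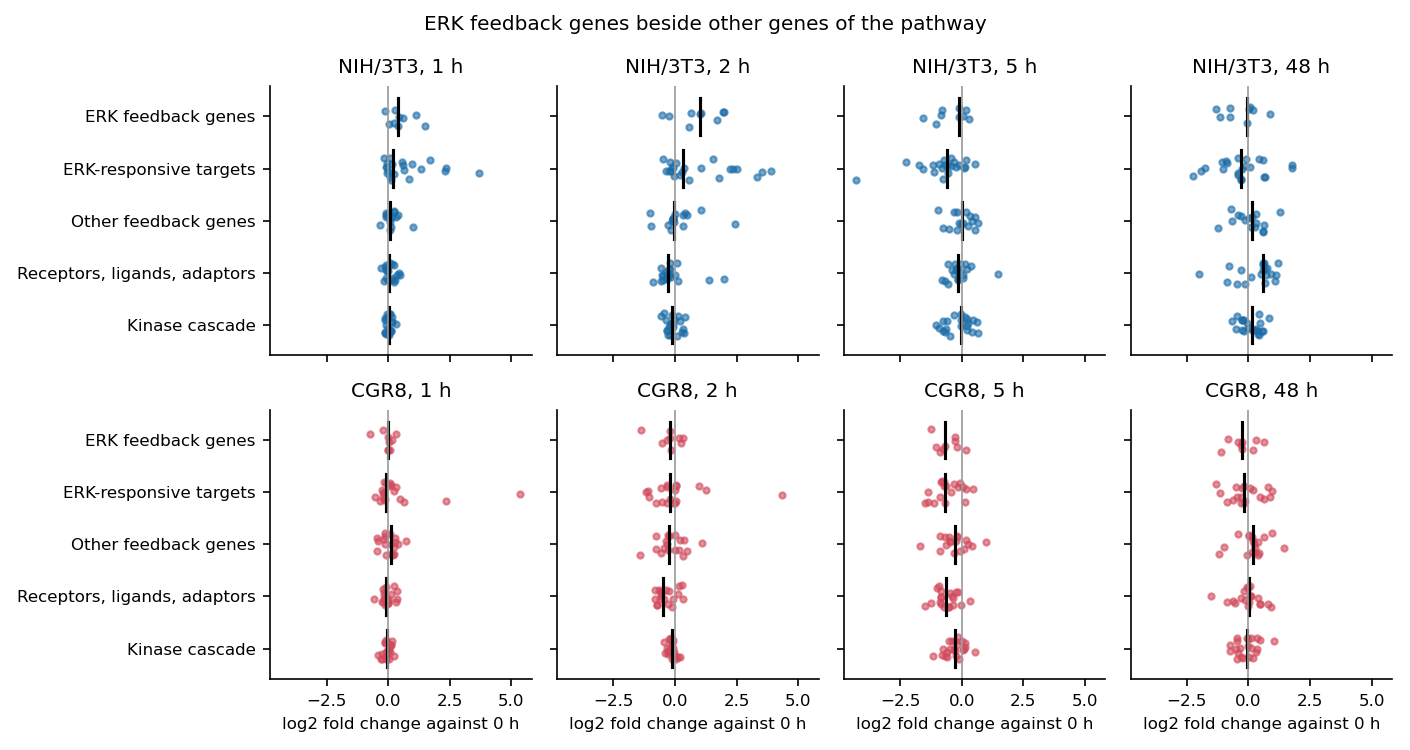
log2 fold change against 0 h of the 9 tested feedback genes and of the genes in 4 lists of the pathway, by line (rows) and time (columns), with 1 point per gene, spread vertically at random within its list, and a black bar at the median. At 2 h in NIH/3T3 the feedback genes have a median of 1.01, the ERK-responsive targets 0.31 and the kinase cascade -0.11.

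The remaining phosphatases and feedback proteins, 20 symbols of which 16 were tested in NIH/3T3 and 18 in CGR8, formed another list. In NIH/3T3 1 was higher and 0 lower at 1 h, 4 and 2 at 2 h, 4 and 4 at 5 h, and 4 and 4 at 48 h. In CGR8 the counts were 0 and 0 at 1 h by edgeR (3 at an unadjusted p under 0.05, 0 called by DESeq2 and 3 by voom), 2 and 4 at 2 h, 1 and 6 at 5 h, and 3 and 2 at 48 h. Errfi1, the feedback inhibitor of the EGF receptor, rose in NIH/3T3 at 2 h from 81.7 ± 1.9 to 432 ± 33 CPM (log2 2.44, SE 0.17). Dusp9, an ERK phosphatase of the cytoplasm, fell in NIH/3T3 at 48 h (log2 -1.25, SE 0.12), and Dusp7, of the same subfamily, fell in CGR8 at 2 h (log2 -1.41, SE 0.14). Dusp19 rose in CGR8 at 5 h (log2 0.99, SE 0.15). Without NIH/3T3 1 h replicate C, 3 of this list were called at 1 h. In CGR8, 3 were called at 2 h without 0 h replicate A or 0 h replicate C and 2 without 2 h replicate C, 4 were called at 5 h without 0 h replicate A, and 3 at 48 h without 0 h replicate B, 0 h replicate C or 48 h replicate C.

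Of 23 receptors, ligands and adaptors, 20 were tested in each line. In NIH/3T3 the numbers higher and lower were 0 and 0 at 1 h by edgeR (3 at an unadjusted p under 0.05, 1 called by DESeq2 and 8 by voom), 2 and 8 at 2 h, 1 and 6 at 5 h, and 13 and 5 at 48 h. In CGR8 they were 0 and 1 at 1 h, 0 and 9 at 2 h, 0 and 15 at 5 h, and 2 and 4 at 48 h. Hbegf, an EGF receptor ligand, rose in NIH/3T3 at 2 h from 52.9 ± 1.8 to 203.5 ± 20.4 CPM (log2 1.98, SE 0.11) and was lower than untreated at 48 h in both lines (log2 -2.002, SE 0.11, in NIH/3T3 and -1.52, SE 0.19, in CGR8). The receptor gene Fgfr2 rose in CGR8 at 48 h (log2 0.90, SE 0.26), a call lost without 0 h replicate A (0.83), 48 h replicate B (0.74) or 48 h replicate C (0.70). Without NIH/3T3 1 h replicate C, 3 of the list were called at 1 h. In CGR8, 0 were called at 1 h without 1 h replicate A or 1 h replicate C, 3, 4 and 2 were called at 2 h without 0 h replicate A, 0 h replicate C and 2 h replicate C, and 3 at 48 h without 48 h replicate B or 48 h replicate C.

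Of the 22 genes of the kinase cascade itself, 21 were tested in NIH/3T3 and 22 in CGR8. In NIH/3T3 the numbers higher and lower were 0 and 0 at 1 h by edgeR (1 at an unadjusted p under 0.05, 0 called by DESeq2 and 3 by voom), 2 and 4 at 2 h, 6 and 9 at 5 h, and 10 and 5 at 48 h. In CGR8 they were 0 and 0 at 1 h (0 at an unadjusted p under 0.05, and 0 called by DESeq2 or voom), 0 and 2 at 2 h, 1 and 10 at 5 h, and 3 and 8 at 48 h. Araf, a RAF kinase, rose in CGR8 at 48 h from 41.9 ± 3.2 to 87.0 ± 7.5 CPM (log2 1.04, SE 0.13), and Rps6ka2, an ERK-activated kinase, fell there at 5 h (log2 -1.16, SE 0.15). In NIH/3T3 the related Rps6ka3 rose at 48 h (log2 0.83, SE 0.14) and Map2k6, which activates p38, fell at 5 h (log2 -1.04, SE 0.11). In NIH/3T3, 1 was called at 1 h without 0 h replicate B, and 3 and 11 at 2 h without 0 h replicate A and 2 h replicate A. In CGR8, the 2 called at 2 h became 0 without 0 h replicate A, 0 h replicate C or 2 h replicate C, 1 without 0 h replicate B and 4 without 2 h replicate A, and the 11 called at 48 h became 6 without 0 h replicate B, 7 without 48 h replicate A or 48 h replicate B and 3 without 48 h replicate C.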

How the data were processed

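The authors deposited raw counts per gene for 30 libraries (2 lines, 5 times, 3 replicates) from a stranded mRNA kit, per the labels, and all columns were used. The tools STAR and DESeq2 and the build GRCm39 are named in the submitters' processing notes, with no role given. The counting tool, its use of strand and the annotation release were not given in the sources used here. Symbols matched 51880 of 57186 identifiers (90.7%). Exon lengths, overlaps and 3′ untranslated regions came from GENCODE M21 (GRCm38) and promoters from RefSeq (GRCm38.p6), so no coordinate refers to the authors' build. The members and lists were chosen with earlier results of these data known.

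Counts were fitted in R 4.3.3 with edgeR 4.0.16 (filterByExpr with minimum count 10 and minimum total 15, TMM factors, quasi-likelihood F test, Benjamini-Hochberg adjustment over all genes tested, threshold 0.05). Each line was fitted in a model of its 15 libraries, with line differences and untreated contrasts from a model of all 30. CPM used TMM-scaled totals, and log2 CPM a prior count of 2. Totals of 18.2 to 30.5 M counts (mega-counts) leave genes of few counts least precise. Members are described whether or not called. In each list, the genes named have the largest called rise and fall per line and a mean of at least 1 CPM, and the 2 genes most like each member by Pearson correlation were found among genes of at least 5 CPM. The alternatives were RLE factors, library size alone, DESeq2 1.42.0, voom with sample quality weights in limma 3.58.1, 2 other filters, a replicate block, a model of the compared groups alone, and leaving out each library. The fits were tested on simulated data.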

Additional observations from a re-analysis of the deposited data

Results flagged for a closer look

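The change against 0 h differed between the lines for 19 of the tested combinations of member and time, by the interaction test in edgeR. At 1, 2, 5 and 48 h, 3, 6, 5 and 5 of the 9 tested members were called. Of all 17549 genes tested, 28, 355, 2329 and 3849 were called at these times, so the background was much higher at 5 h and 48 h. The values below are CGR8 minus NIH/3T3 differences in log2 fold change, 3 replicates per group, with no explanation tested. At 1 h the difference was -1.48 for Dusp1 (adjusted p = 7.6e-05), -0.96 for Dusp6 and -1.17 for Spry4. At 2 h it was -2.26 for Dusp1, -1.73 for Dusp5, -1.35 for Dusp6, -1.17 for Dusp10, -1.21 for Spry2 and -1.95 for Spry4. At 5 h it was -1.27 for Dusp1, 0.59 for Dusp4, -1.22 for Dusp10, 0.92 for Spry2 and 0.88 for Spry4, and the values of Dusp4 and Spry4 lost their calls without CGR8 5 h replicate B (0.34 and 0.63). At 48 h it was -1.99 for Dusp1, 1.75 for Dusp4, 0.87 for Dusp5, -0.79 for Dusp6 and 1.03 for Spry2.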

How the results depend on the processing

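Of 96 results called for single members in the 18 comparisons, the whole-fit alternatives gave 763 values, of which 734 kept the call, 29 lost it and 0 reversed. Leaving out single libraries gave 690 values, of which 637 kept the call, 53 lost it and 0 reversed. A change of sign of a difference called in neither fit was counted as no change. Among results not called, 33 of 521 and 12 of 498 values gained a call. Counts of called members moved as follows. Voom called 7 members at 1 h in NIH/3T3 (3 in edgeR), 8 line differences at 48 h (5) and 3 in the CGR8 step from 2 h to 5 h (5). A model of the compared groups alone called 1 member at 2 h in CGR8 (3), 8 line differences at 48 h (5), 1 in the NIH/3T3 step from 1 h to 2 h (6) and 2 in the CGR8 step from 2 h to 5 h (5). Among genes of at least 5 CPM, 7 members were tested in CGR8, and 3 were called at 5 h (5) and 3 in the step from 2 h to 5 h (5). Library size alone called 0 members at 1 h in CGR8 (1). Smaller moves included 6 members at 48 h in CGR8 (4), both by voom and by a model of the compared groups alone. The cause of these shifts was not tested. For voom, the compared groups alone, the 5 CPM filter and left-out libraries, the shares of all genes called are not given here. Moves of counts under these settings, for members or lists, therefore describe the fits and are not set against a background.

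With single libraries left out, the counts of called members ranged in NIH/3T3 from 3 to 6 at 1 h, 8 to 9 at 2 h, 4 to 5 at 5 h and 5 to 5 at 48 h, and in CGR8 from 0 to 0 at 1 h, 1 to 4 at 2 h, 4 to 6 at 5 h and 3 to 4 at 48 h. Line differences ranged from 3 to 4 at 1 h, 6 to 6 at 2 h, 3 to 5 at 5 h and 5 to 6 at 48 h, and the untreated contrast stayed at 8. The NIH/3T3 steps ranged from 5 to 8 (1 h to 2 h), 7 to 8 (2 h to 5 h) and 7 to 9 (5 h to 48 h), and the CGR8 steps from 3 to 6 (2 h to 5 h) and 5 to 7 (5 h to 48 h).

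Counts over the lists that moved by more than 1.5 times are given with the edgeR count in parentheses. Voom called 7 (1), 10 (6) and 13 (8) of the other feedback genes at 1, 2 and 48 h in NIH/3T3 and 3 (0), 11 (7) and 8 (5) at 1, 5 and 48 h in CGR8. It called 8 (0) and 14 (7) receptors, ligands and adaptors at 1 h and 5 h in NIH/3T3 and 3 (1) at 1 h in CGR8, 3 (0) and 16 (6) cascade genes at 1 h and 2 h in NIH/3T3 and 4 (2) at 2 h in CGR8, and 4 (2) ERK-responsive targets at 1 h in CGR8. The compared groups alone gave 0 (1) other feedback genes and 5 (8) targets at 1 h in NIH/3T3, and at 2 h in CGR8 3 (6) other feedback genes, 2 (9) receptors, ligands and adaptors, 0 (2) cascade genes and 5 (8) targets. Receptors, ligands and adaptors at 1 h in NIH/3T3 went to 1 with DESeq2, 2 with no filter and 1 at 5 CPM or more (0), and targets at 1 h in CGR8 to 1 at 5 CPM or more (2).

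The replicate letters are not stated to mark a shared batch or day. Of 24 same-letter correlations of deviations from group means, 7 were over 0.1 (range -0.578 to 0.421). Each set a later time against 0 h only, so they cannot show whether the letters pair the samples. With the replicate block, 0 members were called at 1 h in CGR8 (Spry4 lost, adjusted p = 0.0624 by edgeR) and 3 at 48 h (Spry2 lost, 0.0567), against 1 and 4 without it, and the other counts of called members were the same, while 1 cascade gene (2 without it) was called at 2 h in CGR8. Of 100 mean levels, 9 were counted as moved by at least 1 SD under library size alone. Among them were those of Dusp2 in NIH/3T3 at 2 h and 5 h, which were 0 with an SD of 0 under both scalings. Over all levels except those of Dusp2, moved or not, the ratios to the TMM-scaled levels ran from 0.914 to 1.07. Depth limits Dusp2 most, with at most 8 counts in any library.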
